A study of Mus musculus with 4 samples.

Results

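The clustered protocadherins are neural adhesion genes that lie in an alpha, a beta and a gamma cluster on chromosome 18. Their members were taken from the deposited gene table as every row whose mouse symbol is that of an alpha, beta or gamma protocadherin, which gave 58 of 46946 genes. They are 12 alternate and 2 C-type alpha isoforms, 22 beta isoforms, and 12 gamma A, 7 gamma B and 3 gamma C-type isoforms. RNA came from 4 mouse tumours, named T14, T10, T8 and TUN, which the labels describe as untreated, of genotype K27M and grown from neural stem cells with PDGF (PDGFB in the sample titles). The column names match no title one to one, and whether the tumours came from separate animals is not stated in the sources used here. The series text speaks instead of injected DIPG cells, a glioma of the brainstem, with mutant histone H3.3, and the files used here do not settle this. All 4 tumours form 1 group that shares PDGF and K27M, and strain, age, site of growth and the promoter of any introduced gene were not stated in the sources used here. With no second group there was no test between conditions, and since the set was proposed with the levels of Pcdhgb5 and Pcdhgb6 in these same tumours known, levels are given as a description.

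Each alpha and gamma isoform has its own promoter and its own large variable exon, which codes for the outer part of the protein and is spliced to constant exons common to the cluster. Beta isoforms consist of a variable exon alone. In neurons the alternate promoters are chosen cell by cell, with CTCF, cohesin and DNA methylation taking part in the choice, while C-type isoforms follow cell type. Proteins of like composition bind each other across cells, and this recognition lets the branches of a neuron avoid one another.

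In mm10, the build named in the submitters' processing notes, the alpha members extend over chr18:36930184-37187661, the beta members over chr18:37264938-37524479 and the gamma members over chr18:37661793-37841873, all on the plus strand. The table lists 3 constant exons for each of the 14 alpha members, of 59, 89 and 2712 bases, the last with small differences between entries. The gamma constant exons have 59, 89 and 1971 bases, and the first of them is listed for 21 of 22 members. Pcdha1 had 0 counts in T8 and Pcdhga10 had 0 counts in all 4 tumours, although both list constant exons. The other members of each cluster list the same exons, so reads that lie within them would be uncounted for those members too. The deposited length includes the constant exons, so RPKM by that length also divides alpha and gamma counts by such bases. It does so unevenly, as bases that no other gene covers are 33.2% of the length of Pcdhga4 and 68.5% of that of Pcdhgb5. Beta isoforms have no constant exons. Pcdhga10 is also the member with 0 bases that no other gene covers, since the antisense gene Gm26672 overlaps 100% of its first exon. Its level is therefore not measured by these counts. Pcdha4 has 404 bases of its own, Pcdha11 1268, Pcdhga11 1256 and Pcdhb12 1107, so their RPKM by the deposited length is the less certain. The first exon was overlapped by another gene in 5 alpha, 3 beta and 10 gamma members, and the library kit does not mark strand. For Pcdhgc3 the antisense gene BC037039 covers 46.1% of the first exon. Beta isoforms are close copies of each other, as are gamma isoforms, so reads with several matches can be split or lost, and how they were treated is not given in the sources used here.

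Libraries held between 21664889 and 24369339 counts, and the members took 0.0916% of them in T14 and 0.0685% in T10, and 0.09% in T8 and 0.0867% in TUN. Levels of 1 gene between tumours are given as CPM (counts scaled to a common library size, with TMM factors), and levels of different genes as RPKM, which also divides by the deposited exon length. A count of 0 allows up to 3 counts, or 0.122 to 0.134 CPM, and intervals of CPM here are exact Poisson 95% limits for counting error only. The 58 members summed to 943 CPM in T14 and 680 in T10, and 911 in T8 and 838 in TUN. At 1 CPM or more in all 4 tumours were 37 of them, against 28.2% of all genes in the table. In bulk RNA, fewer cells that use an isoform and less of it per cell cannot be told apart.

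**Figure D1:**
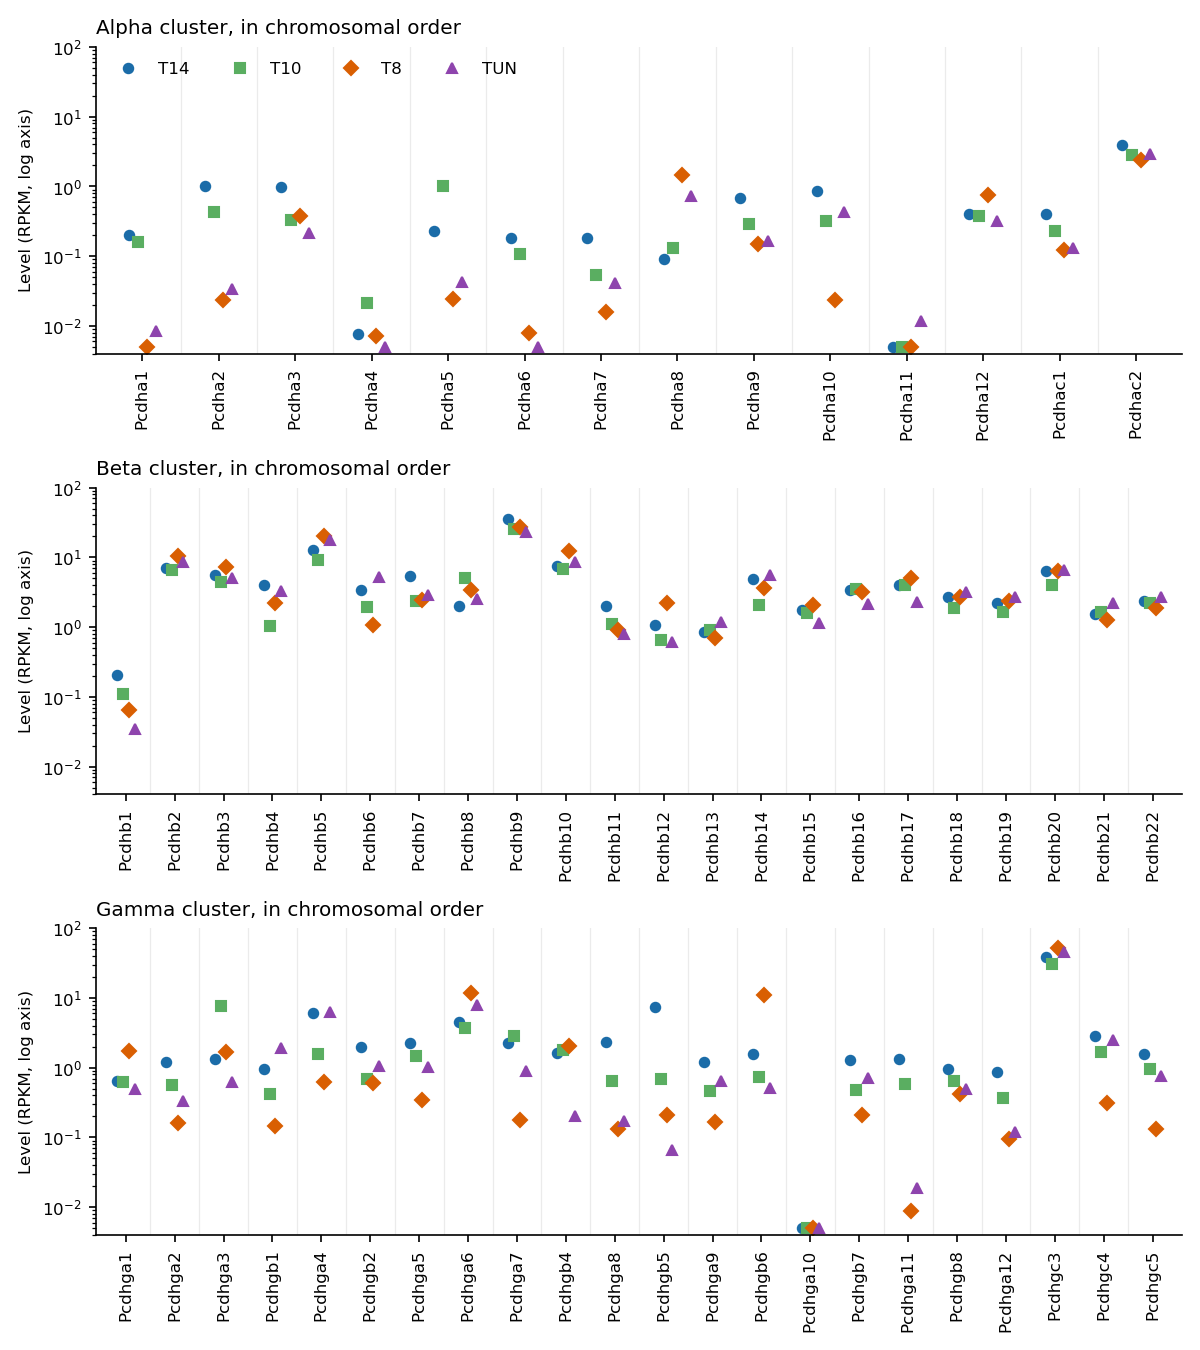
Level of each clustered protocadherin in the 4 tumours, in RPKM on a log axis, with members in chromosomal order and values below 0.005 RPKM drawn at 0.005. Most beta isoforms lie close together between tumours, while Pcdhga3 stands out in T10, Pcdhgb5 in T14, Pcdhgb6 in T8 and Pcdha8 in T8 and TUN.

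A C-type isoform was the highest member of both the alpha and the gamma cluster in every tumour. Pcdhgc3, which in mouse neurons promotes dendrite branching, led the gamma cluster in every tumour, at 210 CPM in T14 and 169 in T10, and 282 in T8 and 254 in TUN. It took 46.3%, 51.9%, 61.5% and 63.4% of the summed gamma RPKM in the same order, or 56.4%, 62.8%, 72.4% and 71.1% when each isoform was divided by only the exon bases that no other gene covers. Pcdhac2, which mouse serotonergic neurons need to space their axons, led the alpha cluster in every tumour, at 22.8 CPM in T14 and 16.7 in T10, and 14.2 in T8 and 17.3 in TUN. That was 42.6%, 45.1%, 45.1% and 58% of the summed alpha RPKM. Both isoforms varied little, with a highest tumour 1.66 times the lowest for Pcdhgc3 and 1.6 times for Pcdhac2.

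The other C-type isoforms were lower and less even. Pcdhgc4, the gamma isoform that mouse neurons need for survival, stood at 15.8 CPM in T14 and 9.36 in T10, and 1.76 in T8 and 13.9 in TUN. Pcdhgc5 stood at 11.9 CPM in T14 and 7.21 in T10, and 1.01 in T8 and 5.89 in TUN. T8 was the lowest tumour for both, although it had the highest Pcdhgc3. Pcdhac1 stood at 2.17 CPM in T14 and 1.26 in T10, and 0.67 in T8 and 0.714 in TUN. The gamma C-type isoforms together reached 238 CPM in T14 and 285 CPM in T8, most of it from Pcdhgc3.

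The beta cluster was used broadly and with the same 3 leading isoforms per length in all 4 tumours. Of 22 beta isoforms 21 reached 1 CPM in every tumour, and the exception was Pcdhb1, at 0.533 CPM in T14 and 0.285 in T10, and 0.168 in T8 and 0.0893 in TUN. Pcdhb9 was the leading beta isoform in each tumour, at 108 CPM in T14 and 77.4 in T10, and 83.9 in T8 and 71 in TUN, or 35.3, 25.3, 27.5 and 23.2 RPKM. Pcdhb5 came second in each, at 45.2 CPM in T14 and 32 in T10, and 70.9 in T8 and 62.3 in TUN, and Pcdhb10 was next per length, at 21.5, 19.5, 35.3 and 24.8 CPM. These 3 isoforms took 47.7% of the summed beta RPKM in T14 and 46.8% in T10, and 50.3% in T8 and 45.9% in TUN. The summed beta level was 409 ± 54.2 CPM (SD, n = 4). Among beta isoforms at mean CPM 1 or more, the widest difference between tumours was that of Pcdhb6, at 12.9 CPM in T14 and 7.21 in T10, and 3.98 in T8 and 19.4 in TUN.

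Alternate alpha isoforms had sums of 25.8 CPM in T14 and 17.1 in T10, and 15.1 in T8 and 10.7 in TUN. Per length Pcdha2 led in T14, Pcdha5 in T10 and Pcdha8 in both T8 and TUN, which had 4 of their 5 highest isoforms in common. In T14 Pcdha2, Pcdha3 and Pcdha10 shared the lead, with 20.8%, 20.3% and 17.8% of the summed RPKM of the alternates. By counts, the share of Pcdha2 in T14 was 20.8% (17.6% to 24.4%, exact binomial) and that of Pcdha3 20.3% (17.1% to 23.8%), so their order is within counting error. In T10 Pcdha5 led with 31.1%, followed by Pcdha2 with 13.5%. Pcdha8 led in T8 with 50.8% and in TUN with 36.3%, followed by Pcdha12 in T8 (27%) and by Pcdha10 in TUN (21.6%).

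These leaders were picked for a high level in a tumour, so their counts and counting intervals are a description. Pcdha8 had 11 counts in T14 (0.488 CPM, 0.244 to 0.874), 17 in T10 (0.692 CPM), 183 in T8 (7.67 CPM, 6.6 to 8.86) and 87 in TUN (3.88 CPM, 3.11 to 4.79). Pcdha5 had 27 counts in T14 (1.2 CPM), 128 in T10 (5.21 CPM, 4.35 to 6.2), 3 in T8 and 5 in TUN. Pcdha2 had 121 counts in T14 (5.37 CPM), 57 in T10 (2.32 CPM), 3 in T8 and 4 in TUN. So Pcdha8 was high where Pcdha2 was near the floor, in T8 and TUN. Pcdha10 was near the floor in T8 only, with 104 counts in T14 and 42 in T10, and 3 in T8 and 52 in TUN. Pcdha3 and Pcdha12 were present in every tumour, Pcdha3 at 5.24 CPM in T14 and 1.75 in T10, and 2.01 in T8 and 1.16 in TUN, and Pcdha12 at 2.13, 1.99, 4.06 and 1.7 CPM in the same order.

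Alternate gamma isoforms had sums of 210 CPM in T14 and 129 in T10, and 154 in T8 and 114 in TUN. Divided by the deposited length, 3 isoforms led the 4 tumours, with Pcdhga6 first in both T8 and TUN. The first exons of the main ones lie in the order Pcdhga3 (ENSMUSG00000104346.1) at chr18:37674307-37676907, Pcdhga6 (ENSMUSG00000103793.1) at chr18:37707039-37709652, Pcdhgb5 (ENSMUSG00000103749.1) at chr18:37731009-37735622 and Pcdhgb6 (ENSMUSG00000103088.1) at chr18:37742094-37744658. Pcdhgb5 had 1115 counts in T14 (49.5 CPM, 46.6 to 52.5), 113 in T10 (4.6 CPM), 34 in T8 (1.42 CPM) and 10 in TUN (0.447 CPM, 0.214 to 0.821). T14 thus stood 10.8-fold above the next tumour and 111-fold above TUN. Pcdhgb6 had 164 counts in T14 (7.28 CPM), 84 in T10 (3.42 CPM), 1256 in T8 (52.6 CPM, 49.8 to 55.6) and 54 in TUN (2.41 CPM). Here T8 stood 7.23-fold above the next tumour, T14. These are the isoforms whose levels led to the choice of the set, so their values are a description and no call on them is support.

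Of the gamma A isoforms, Pcdhga3 peaked in T10, with 36.4 CPM (34 to 38.8), and stood at 7.96 CPM in T8, 6.39 in T14 and 2.9 in TUN. Pcdhga4 was high in the pair T14 and TUN, at 29.2 CPM in T14 and 7.37 in T10, and 2.97 in T8 and 29.4 in TUN. Pcdhga6 was high in every tumour and highest in T8, at 21.1 CPM in T14 and 17.3 in T10, and 55.2 in T8 and 37.2 in TUN. Pcdhga7 was lowest in T8, at 11.9 CPM in T14 and 14.9 in T10, and 0.922 in T8 and 4.73 in TUN. Pcdhga8 was highest in T14, at 11 CPM there, 3.01 in T10, 0.628 in T8 and 0.804 in TUN.

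By deposited length, the gamma alternates of T14 were led by Pcdhgb5, with 18.4% of their summed RPKM, followed by Pcdhga4 with 15.5% and Pcdhga6 with 11.2%. T10 was led by Pcdhga3 with 29.7%, followed by Pcdhga6 with 14.1% and Pcdhga7 with 11%. In T8 Pcdhga6 (36.8%) and Pcdhgb6 (35.5%) led together, far above Pcdhgb4 (6.37%). TUN was led by Pcdhga6 with 33.6% and Pcdhga4 with 26.6%, followed by Pcdhgb1 with 8.14%. The leader depends on the length used in 2 tumours. Divided by own exon bases, of which Pcdhga4 has 1570 and Pcdhgb5 4614, Pcdhga4 led T14 with 22.7% and TUN with 36.6%, while Pcdhgb5 in T14 had 13.1%. The leaders of T10 and T8 were the same either way.

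**Figure D2:**
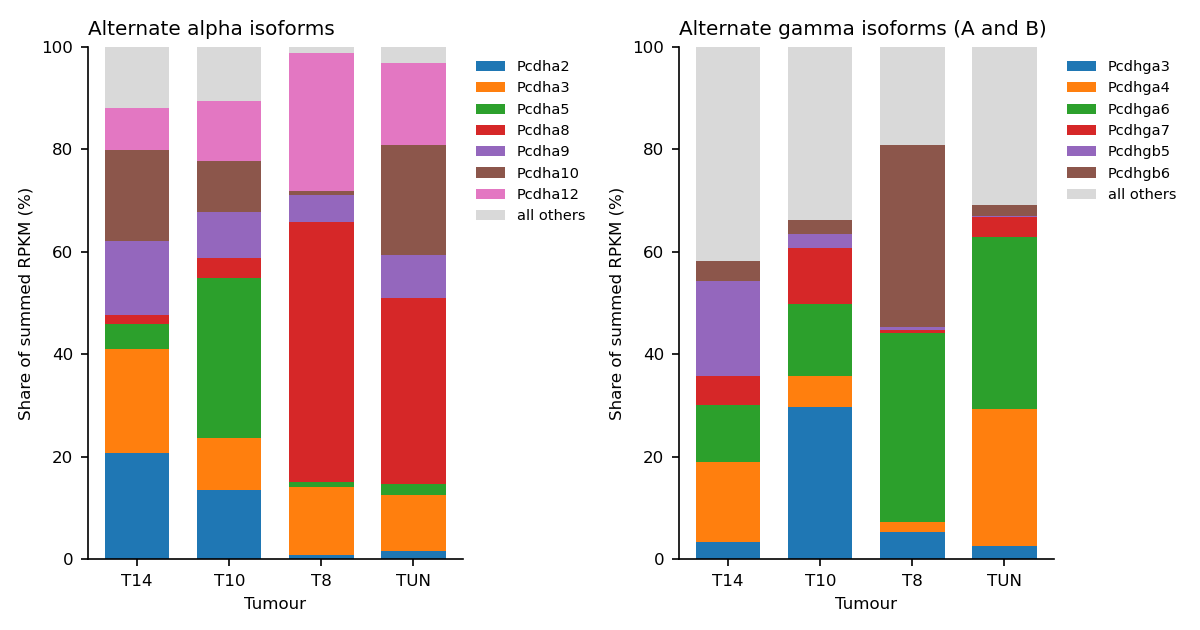
Share of the summed RPKM of the alternate alpha isoforms (left) and alternate gamma A and B isoforms (right) in each tumour, in percent, with isoforms that reach 10% in a tumour in colour and all others in grey. Pcdha8 fills 50.8% of the alpha column of T8, and Pcdhga6 with Pcdhgb6 fill most of the gamma column of T8.

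Several of the leading isoforms stood well above the next members on the chromosome. Each was picked for a high level in its tumour, so that it exceeds its neighbours follows from the choice, and the values are a description. In T8 Pcdhgb6 reached 11.2 RPKM, while Pcdhga9, whose start lies 5158 bases before it, had 0.165 RPKM, and Pcdhga10 after it had no bases of its own to count. In T14 Pcdhgb5 reached 7.35 RPKM, against 2.33 for Pcdhga8 before it and 1.21 for Pcdhga9 after it. Divided by own exon bases these were 10.7, 5.27 and 1.94 RPKM, a smaller difference from Pcdhga8. In T10 Pcdhga3 reached 7.7 RPKM, against 0.564 for Pcdhga2 and 0.416 for Pcdhgb1 on its sides. Pcdhga6 in T8 (11.7 RPKM) lay between Pcdhga5 at 0.341 and Pcdhga7 at 0.177, and Pcdha8 in T8 (1.44 RPKM) between Pcdha7 at 0.0157 and Pcdha9 at 0.149. The isoforms that led together in T8, Pcdhga6 and Pcdhgb6, are not adjacent. Other high isoforms were neighbours, such as Pcdha2 and Pcdha3 in T14 (1 and 0.982 RPKM) and Pcdhga6 and Pcdhga7 in T10 (3.66 and 2.86 RPKM).

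The isoforms that did not lead also differed in level between tumours. The median of the 18 alternate gamma isoforms with exon bases of their own was 1.45 RPKM in T14 and 0.664 in T10, and 0.277 in T8 and 0.565 in TUN. The leading isoform stood 5.43-fold above the median of the others in T14, 12-fold in T10, 54.7-fold in T8 and 15.2-fold in TUN. For the 12 alternate alpha isoforms the median was 0.215 RPKM in T14 and 0.225 in T10, and 0.0235 in T8 and 0.0424 in TUN. T14 was the highest tumour for 10 of the 18 alternate gamma isoforms with counts and T8 the lowest for 12 of them. The same shares over all genes were not taken, so nothing is read from these counts.

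An effective number of isoforms, the exponential of the Shannon entropy of the shares, puts this in 1 value per tumour. Among gamma alternates it was 13.8 in T14 and 11.1 in T10, and 5.5 in T8 and 7.87 in TUN, of 19 isoforms. Among alpha alternates it was 7.78 in T14 and 7.81 in T10, and 3.68 in T8 and 5.61 in TUN, of 12 isoforms. In the beta cluster it stayed between 12.7 in T8 and 13.8 in TUN, of 22 isoforms. The profiles of the tumours overlapped accordingly. The shares of beta isoforms that a pair of tumours had in common summed to 83% to 89.1% over the 6 pairs. For gamma alternates this overlap was between 34.6% (T14 and T8) and 61.7% (T14 and T10), and for alpha alternates between 32.3% (T14 and T8) and 71.4% (T8 and TUN). Pcdhga6 was the only gamma alternate that T14 and T8, or T8 and TUN, had in common among their 5 highest.

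The spread of single isoforms between tumours is given here by class. A mean CPM of 1 or more was reached by 51 members, and 1 high tumour was enough to reach it, so the counts that follow describe those that passed and support nothing. The highest tumour was 4-fold or more above the lowest in 6 of 7 alternate alpha, 9 of 11 gamma A, 5 of 7 gamma B, 2 of 3 gamma C-type and 1 of 21 beta isoforms, 23 of 51 in all (45.1%), against 11.6% of all genes at that level. This was the case for 15 members without T14 and for 12 without T8. The median span was 15.7-fold for alternate alpha, 2.42-fold for alpha C-type and 1.81-fold for beta isoforms. It was 9.25-fold for gamma A, 10.1-fold for gamma B and 9-fold for gamma C-type isoforms, against 1.59-fold for all genes at that level. By Dixon's criterion, which asks whether 1 of 4 values lies apart from the other 3, 1 tumour stood apart in 6 of the 57 members with a count, against 18.5% of all genes with a count, and in 5 of the 51 at mean CPM 1 or more, against 4.75% of all genes at that level. In an edgeR fit with 1 group, 7 of the 47 members tested were more variable than genes of like abundance (Benjamini-Hochberg adjusted p under 0.05), against 4.34% of all genes tested. They were Pcdha8, Pcdhga3, Pcdhga4, Pcdhga7, Pcdhga8, Pcdhgb5 and Pcdhgb6. The p-values measure only the spread between these 4 libraries, which may be in part technical. The set was proposed from this same spread, so nothing is read from that count. It was 3 without T14, 3 without T10 and 3 without T8, and with no filter on low counts Pcdha8, Pcdhga7 and Pcdhga8 were not called.

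**Figure D3:**
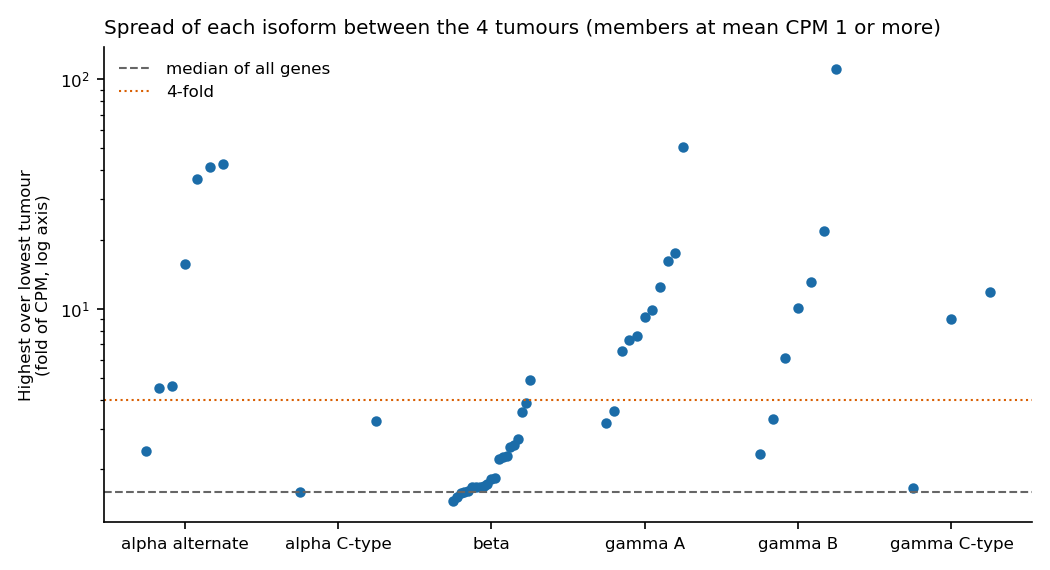
Fold between the highest and the lowest tumour, in CPM on a log axis, for each of the 51 members at mean CPM 1 or more, by class. Beta isoforms have a median of 1.81, near that of all genes (1.59, dashed), and reach up to 4.88 (Pcdhb6). Most alternate alpha and gamma isoforms lie above 4 (dotted), and Pcdhgb5 highest at 111.

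The tumours differed in the RNA of other cell types. The 9 neuron markers summed to 3197 CPM in T14 and 2375 in T10, and 259 in T8 and 144 in TUN, all 9 spanned 4-fold or more, and none was at 0 in any tumour. Astrocyte markers summed to 5545, 3098, 1939 and 1633 CPM in the same order, but Sox9 was highest in T8 (101, 111, 239 and 57.3 CPM) and Slc1a3 was about even outside T14 (1512, 767, 797 and 767 CPM). The mature oligodendrocyte markers summed to 3464, 4554, 1081 and 1070 CPM. Markers of oligodendrocyte precursors were high in all 4, at 8020, 9420, 12992 and 10595 CPM. Thus the tumours with the more even gamma and alpha profiles, T14 and T10, were those with more neuron RNA, and the part of that RNA in these profiles was not tested. Between T8 and TUN, Pcdhgc4, Pcdhgc5 and Pcdhga4 were higher in TUN, which had the lower neuron sum. So were the median of the gamma alternates (0.277 RPKM in T8, 0.565 in TUN) and their effective number (5.5 in T8, 7.87 in TUN). Of the neuron markers, Gad1 (16.9 CPM in T8, 24.4 in TUN) and Syt1 (13.7 in T8, 15.5 in TUN) were also higher in TUN. Purkinje cell markers summed to 2040 CPM in T14 and 263 in T10, and 233 in T8 and 152 in TUN, so T14 was highest for these and for Pcdhgb5, and their part in the Pcdhgb5 level was not tested. Most of the T8 and TUN sums was Car8 (713, 117, 222 and 147 CPM). Calb1 (547, 74.2, 4.53 and 2.99 CPM), Rgs8 and Pcp2 were higher in T10 than in T8 and TUN. Choroid plexus markers summed to 43.2 CPM in T14 and 604 in T10, and 41.9 in T8 and 7.28 in TUN, so T10 was highest for these and for Pcdhga3, which likewise was not tested. Kcnj13 was at 0 counts in T8 and TUN. Serotonergic neuron markers were low, at 9.5, 12.1, 3.52 and 4.87 CPM, with Fev at 0 in T14 and Slc6a4 at 0 in T8. Dividing cell markers summed to 629 CPM in T14 and 660 in T10, and 1193 in T8 and 1494 in TUN, and these were thus higher in the tumours with fewer effective isoforms, which was not tested either. Microglia markers summed to between 223 and 299 CPM and endothelial markers to between 133 and 170 CPM.

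**Figure D4:**
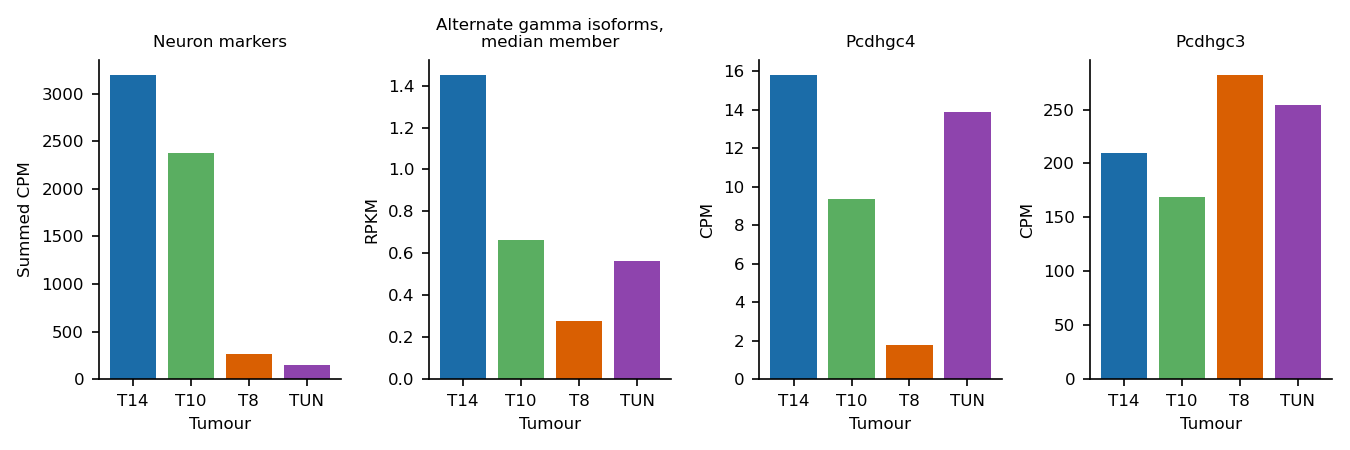
Summed CPM of 9 neuron markers, the median RPKM of 18 alternate gamma isoforms, and the CPM of Pcdhgc4 and Pcdhgc3, 1 bar per tumour, all axes from 0. The gamma median and the neuron sum are highest in T14, but TUN has the lowest neuron sum and a higher gamma median than T8. Pcdhgc4 is low in T8 alone, and Pcdhgc3 is high in all 4 tumours.

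Like most genes, those known to act on the clusters spanned less than 4-fold between the tumours. Of 26 regulators, 25 were at 1 CPM or more in all 4 tumours, and none of these spanned 4-fold, with a median span of 1.35-fold. Of all genes at mean CPM 1 or more, 11.6% spanned 4-fold, and their median was 1.59-fold. The widest regulators were Uhrf1, at 39.3 CPM in T14 and 54.4 in T10, and 111 in T8 and 130 in TUN, and Dnmt3a, at 123, 180, 61.8 and 164 CPM. The highest CPM values were those of the genes for the cohesin subunit Rad21 (520 ± 89.9 CPM, SD, n = 4), the corepressor Trim28 (316 ± 76.6 CPM) and the maintenance methyltransferase Dnmt1 (279 ± 81.5 CPM). Ctcf, named after its values were seen, stood at 154 ± 21.6 CPM. Its germline paralog Ctcfl had 0 counts in all 4 tumours.

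Neighbouring genes on chromosome 18 likewise spanned less than 4-fold, with 1 exception. Of 21 such genes 20 were found and 17 were detected in all 4 tumours. At mean CPM 1 or more, 1 of 18 spanned 4-fold, against 11.6% of all genes at that level. That was Rell2, at 21.6 CPM in T14 and 25.7 in T10, and 3.9 in T8 and 2.81 in TUN, higher in the tumours with more neuron RNA. The highest CPM values were those of the splicing factor gene Ik (140 ± 17.5 CPM), the deacetylase gene Hdac3 (119 ± 28.4 CPM) and Hars (104 ± 13.5 CPM), which codes for a histidyl-tRNA synthetase.

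Protocadherins outside the clusters, which do not choose between variable exons in this way, were all 12 detected in every tumour. Only Pcdh20 spanned 4-fold, against 11.6% of all genes at mean CPM 1 or more. It stood at 43.7 CPM in T14 and 35.6 in T10, and 5.57 in T8 and 5.85 in TUN, again with the neuron markers. Pcdh10 (316 ± 42.2 CPM), Pcdh15 (288 ± 45.4 CPM) and Pcdh17 (169 ± 39.9 CPM) had the highest CPM values. None of the 10 genes for partners, proteases that cut protocadherins and other self-recognition proteins spanned 4-fold. With lists this short and a share of 11.6% over all genes, nothing is read from either count. These 10 genes were led by Nlgn2 (377 ± 51.4 CPM), which codes for a synaptic adhesion protein, Dscam (341 ± 35.2 CPM), which codes for a self-recognition protein, and the sheddase gene Adam10 (217 ± 21.5 CPM).

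The remaining members are named here after their values were seen. Beta isoforms not yet named had means between 3.4 CPM (Pcdhb13) and 35.2 CPM (Pcdhb14). The remaining gamma A and B isoforms with exon bases of their own had means between 2.33 CPM (Pcdhga11) and 8.16 CPM (Pcdhgb4). Of these, Pcdhga11 had 144 counts in T14 and 69 in T10, and 1 in T8 and 2 in TUN, so it was near the floor in both T8 and TUN. Pcdhgb1 was highest in TUN, at 5.5 CPM in T14 and 2.4 in T10, and 0.838 in T8 and 11 in TUN, and Pcdhga1 was highest in T8. Pcdhgb4 was low in TUN alone, at 9.28 CPM in T14 and 10.5 in T10, and 11.7 in T8 and 1.16 in TUN. The remaining alpha isoforms Pcdha1, Pcdha6, Pcdha7 and Pcdha9 were highest in T14, at up to 3.68 CPM (Pcdha9).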

How the data were processed

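RNA from 4 tumours was sequenced with an Illumina TruSeq RNA kit, per the labels. The authors deposited raw read counts per gene with each gene's exon coordinates and length. STAR, featureCounts and mm10 are named in the submitters' processing notes, while their versions, strand setting and treatment of multiply matching reads were not stated in the sources used here. Symbols were matched for 46451 of 46946 genes. Of the IDs named Pcdha11, the one at the RefSeq (GRCm38.p6) position of Pcdha10 is called Pcdha10. CPM used TMM factors from edgeR 4.0.16 (R 4.3.3), and RPKM the deposited length or the exon bases of no other gene. Variability was tested with edgeR's goodness-of-fit test of an intercept-only fit, checked on simulated data, with Benjamini-Hochberg adjustment over all 14266 genes that passed filterByExpr. DESeq2 1.42.0 was an alternative. Members and lists were chosen with earlier results of these data known. The rule named the 3 members highest in RPKM of each cluster in each tumour, all C-type isoforms, Pcdhgb5, Pcdhgb6 and called members, and of each related list the 3 genes highest in CPM and those spanning 4-fold. Other genes given with values were chosen after their values were seen. Sample columns left unused numbered 0. Sequences of these genes are not reported here.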

Additional observations from a re-analysis of the deposited data

Results flagged for a closer look

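Of the 57 members with counts, 6 had 1 tumour set apart from the other 3 by Dixon's criterion for a gap large against the range of the 4 values, against 18.5% of all genes with a count. At mean CPM 1 or more this was so for 5 of 51 members, against 4.75% of all genes at that level. For 4 values from a normal distribution chance alone gives about 1 in 20 groups, a rate that does not hold for genes with few reads. Pcdhgb5 and Pcdhgb6 were among the reasons for choosing the set, so nothing is read from these counts. High were Pcdhgb5 in T14 (49.5 CPM, next 4.6), Pcdhgb6 in T8 (52.6 CPM, next 7.28), Pcdhga3 in T10 (36.4 CPM, next 7.96) and Pcdhga1 in T8 (9.43 CPM, next 3.46). Low was Pcdhb20 in T10, with 14.5 CPM against 22.8 to 23.2 CPM in the other tumours. Pcdha11 in TUN had 0.0893 CPM, which is 2 counts against 0 in the other tumours and lies under the floor.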

How the results depend on the processing

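Under other scalings (DESeq2 size factors, library totals) no value moved beyond its error. Variable members numbered 7, against 1 with DESeq2's dispersion outliers (78 of all genes, 0.547%) and 3 to 6 with each tumour left out in turn. With no low-count filter 8 were called, 4 of them among the 7; Pcdha8, Pcdhga7 and Pcdhga8 lost their call, and Pcdha1, Pcdha2, Pcdha5 and Pcdhga11 gained one. Members spanning 4-fold numbered 23, against 10 at mean CPM 5 or more and 12 to 21 with a tumour left out, and members detected in all libraries 37 to 42. Shares of all genes in the other settings are not given here, except for the dispersion outliers, so nothing is read from these counts. By share of counts Pcdhb9 had 24.3% of the beta cluster in T14, 23.5% in T10 and 16.8% in TUN, and the effective number of beta isoforms was 14.6 in T14 and 15 in T10, and 14.3 in T8 and 14.9 in TUN. By the inverse Simpson index, which weights abundant isoforms more by construction, it was 7.85, 8.28, 8.81 and 9.78 in the same order. That index gave 4.44 in T14, 4.04 in T10 and 2.69 in TUN for the alpha cluster, against effective numbers of 6.86, 6.53 and 4.3. For the gamma cluster it gave 4.2 in T14 and 3.37 in T10, against 8.75 and 6.81. For gamma alternates in T10 it gave 7.25, against 11.1. The order of T8 and TUN in the gamma cluster depended on the measure, at 2.4 and 2.36 by the index and 3.84 and 4.39 by effective number. With the length of own exon bases Pcdhgc3 had 56.4% of the gamma cluster in T14, 62.8% in T10 and 72.4% in T8. Of gamma alternates Pcdhga4 then had 22.7% in T14 and 36.6% in TUN. Sets of alternates without C-type isoforms were added after seeing the data. No paired analysis was possible because the tumours form 1 group and the columns carry no replicate number. At low counts, as for most alpha alternates, depth limits the order of isoforms.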
